A study of Homo sapiens with 24 samples.

Results

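Ribosome biogenesis factors are the proteins that build the ribosome in the nucleolus, and 37 of their genes were examined among the 57773 genes of the deposited expression table. The rule that picks them uses gene names, but the list of names was chosen with earlier results of these data known. All 37 were expressed above the filter (a TPM, the length-corrected share of all transcripts, of 1 or more in at least 2 libraries) and were among the 16994 genes tested. The libraries came from SKOV3.ip1, which derives from SKOV-3, an established line of human ovarian carcinoma, and in which 4 RNA-binding proteins that regulate splicing were depleted with siRNAs. The depleted cells formed 8 groups, namely RBFOX2 siRNA_1 and siRNA_2, hnRNPC siRNA_2 and siRNA_3, hnRNPM siRNA_1 and siRNA_3, and SRSF1 siRNA_1 and siRNA_3. The controls were 4 mock-transfected sets, which received the lipid transfection reagent and no siRNA. The labels assign the mock set n4/n5 to both RBFOX2 siRNAs, oct to both hnRNPC siRNAs and to hnRNPM siRNA_1, jan to hnRNPM siRNA_3 and SRSF1 siRNA_3, and nov to SRSF1 siRNA_1. Each of the 12 groups held 2 libraries that the series calls biological replicates, so each siRNA was set against 2 control libraries. The siRNA cells had 100 nM siRNA, and RNA was taken from all cells 72 h after transfection. Ribosomal-RNA-depleted, fragmented total RNA was sequenced by TGIRT-seq, in which a heat-stable reverse transcriptase of bacterial intron origin also reads through folded RNAs. All values are from 1 cell line, and no control group with a non-targeting siRNA was analysed here.

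Ribosome production starts with transcription of the ribosomal DNA by RNA polymerase I. The long precursor RNA is then modified by small nucleolar ribonucleoproteins, of which box C/D particles guide methylation of the ribose and box H/ACA particles guide pseudouridylation. A large assembly, the small subunit processome, cleaves the precursor on the 18S side, while other factors process the internal spacer and assemble the large subunit. The members with a role in ribosomal DNA transcription are POLR1A and POLR1B (polymerase subunits), UBTF, RRN3 and TCOF1. FBL, NOP56 and NOP58 belong to box C/D particles, and DKC1, GAR1, NHP2 and NOP10 to box H/ACA particles. NCL, NPM1 and NOLC1 are nucleolar scaffolds and chaperones, and GNL3 and LYAR are linked to growth control. Grouped here on the small subunit side are UTP3, UTP14A, UTP15, UTP18, UTP20, RRP9, RRP12, NOP14, BYSL, HEATR1, WDR43, NAT10 and DDX21, and on the large subunit side BOP1, PES1, WDR12, FTSJ3, NOP2, NOP16 and RRP1. A factor can act on more than the side it is listed under. The pathway is strongly active in growing tumour cells, and many of its genes are known targets of the transcription factor MYC, which binds the E-box with its partner MAX.

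The promoters of the members that passed the test, and of others with an E-box close to their start, are shown first. Sequences are from RefSeq on GRCh38.p14, and 32 of the 37 members matched an entry; TCOF1, NOP58, NOLC1, RRP12 and BOP1 did not. The E-box searched was CACGTG, which reads the same on both strands, in a window from 250 bases before to 50 bases after the annotated start. It was present in 12 of 32 members (37.5%), against 1851 of 22199 protein-coding promoters (8.34%) and 2548 of all 35116 promoters (7.26%). By role it was present in 8 of 12 small subunit processing genes, 2 of 6 large subunit genes, 1 of 4 box H/ACA genes and 1 of 2 box C/D genes with an entry. It was present in 0 of 4 ribosomal DNA transcription genes, 0 of 2 scaffold and chaperone genes and 0 of 2 growth control genes with an entry. In 11 of the 12 genes a match began within 40 bases of the start, a distance chosen after the positions were seen; among the protein-coding promoters, 2.49% had a match that close. A match is a description of the letters and no measure of binding. The 4 sequences below run 5′ to 3′ from 250 bases before to 10 bases after the start, for FTSJ3 (chr17:63827654-63827913, minus strand), RRP1 (chr21:43789327-43789586, plus strand), UTP14A (chrX:129905914-129906173, plus strand) and UTP18 (chr17:51260296-51260555, plus strand), with any E-box in capitals.
FTSJ3: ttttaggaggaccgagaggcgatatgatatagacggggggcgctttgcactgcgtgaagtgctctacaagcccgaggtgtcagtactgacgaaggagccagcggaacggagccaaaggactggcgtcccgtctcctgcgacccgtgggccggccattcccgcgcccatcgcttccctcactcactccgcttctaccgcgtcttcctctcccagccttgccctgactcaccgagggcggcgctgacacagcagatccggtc
RRP1: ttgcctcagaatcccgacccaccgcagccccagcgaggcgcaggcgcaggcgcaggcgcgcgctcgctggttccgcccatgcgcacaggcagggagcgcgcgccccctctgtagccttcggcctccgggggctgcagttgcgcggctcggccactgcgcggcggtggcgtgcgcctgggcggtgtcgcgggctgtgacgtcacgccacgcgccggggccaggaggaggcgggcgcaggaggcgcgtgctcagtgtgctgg
UTP14A: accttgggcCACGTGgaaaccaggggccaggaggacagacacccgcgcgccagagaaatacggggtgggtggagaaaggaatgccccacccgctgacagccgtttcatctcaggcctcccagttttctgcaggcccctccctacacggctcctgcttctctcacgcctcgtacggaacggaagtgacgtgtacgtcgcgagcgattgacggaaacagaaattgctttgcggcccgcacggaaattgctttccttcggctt
UTP18: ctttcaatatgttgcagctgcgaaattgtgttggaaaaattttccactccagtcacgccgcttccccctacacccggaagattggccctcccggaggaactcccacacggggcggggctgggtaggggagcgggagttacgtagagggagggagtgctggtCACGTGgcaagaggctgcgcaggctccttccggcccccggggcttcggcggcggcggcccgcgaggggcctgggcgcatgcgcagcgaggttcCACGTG
The windows of FTSJ3 and RRP1, which had lower RNA levels after SRSF1 depletion, hold no E-box. UTP14A has 1 match, which begins 241 bases upstream of the start. UTP18 has 2, one 89 bases upstream and one 4 bases downstream.

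Shorter windows of 4 further small subunit genes, from 70 bases before to 10 bases after the start, show an E-box at or next to the start. They are UTP20 (chr12:101280035-101280114, plus strand), RRP9 (chr3:51941895-51941974, minus strand), WDR43 (chr2:28894597-28894676, plus strand) and NAT10 (chr11:34105559-34105638, plus strand).
UTP20: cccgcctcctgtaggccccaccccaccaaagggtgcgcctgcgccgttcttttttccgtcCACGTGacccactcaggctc
RRP9: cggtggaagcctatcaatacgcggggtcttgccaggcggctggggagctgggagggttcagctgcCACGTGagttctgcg
WDR43: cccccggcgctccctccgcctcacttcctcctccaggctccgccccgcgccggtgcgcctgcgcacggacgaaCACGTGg
NAT10: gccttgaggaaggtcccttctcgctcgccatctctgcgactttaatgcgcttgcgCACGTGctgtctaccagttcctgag
The match began 10 bases upstream of the start in UTP20, 5 upstream in RRP9, 3 downstream in WDR43 and 15 upstream in NAT10. RNA levels of UTP20, RRP9, WDR43 and NAT10 passed the test in 0 of the 4 protein comparisons described below. With hnRNPC siRNA_2 taken alone, UTP20 passed.

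**Figure D1:**
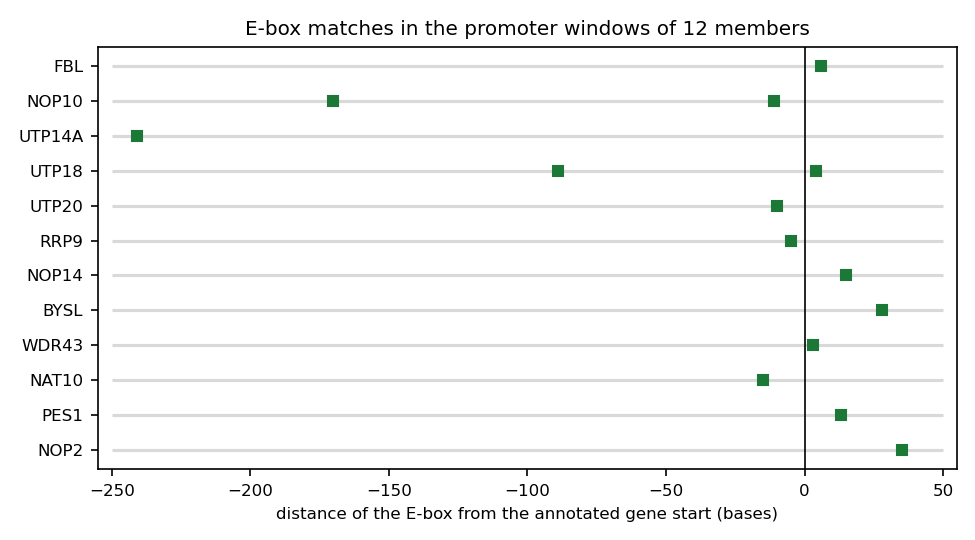
Position of each E-box (square) relative to the annotated gene start, in bases, in the promoter windows (grey lines) of the 12 members that hold one. In 11 of the 12 a square lies within 40 bases of the start, and UTP14A has its single match 241 bases upstream.

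Each targeted RNA passed the test in its own comparison, where RBFOX2 stood at 32.7% of the mock level, HNRNPC at 29.3%, HNRNPM at 28.1% and SRSF1 at 22.4%. These percentages are ratios of values with the pseudocount of 1 added. The epithelial and ovarian carcinoma markers PAX8, ERBB2, EPCAM, KRT7, KRT8 and KRT18 were present in all 24 libraries, with a lowest value of 19.8 scaled TPM. Of 7 markers of blood, vessel, stromal and liver cells, HBB was listed at 0 in all 24 libraries and the highest value of any was 0.685, for LUM. TPM are relative to the total of a library, so the sequencing depth is unknown. How far the replicates were separate cultures is not stated beyond their name, so p-values measure the spread between these libraries. In bulk RNA, fewer cells with an RNA and less of it per cell cannot be told apart.

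The members spanned a wide range of RNA levels. Values are TPM divided by a median-ratio factor per library, called scaled TPM here, and TPM are per transcript length. NPM1 (nucleophosmin, a nucleolar chaperone) had the highest level, with a lowest value of 125, a median of 171 and a highest value of 209 scaled TPM over the 24 libraries. NCL (nucleolin, a nucleolar scaffold) followed at a median of 73.3, and DDX21, an RNA helicase, at 57.1. At the low end were BOP1 at a median of 4.85, WDR12 at 3.72 and RRP12 at 2.24 scaled TPM. BOP1 and WDR12 form the PeBoW complex of the large subunit with PES1, whose median level was 31.0. Table entries named as copies of NPM1 numbered 45, and their median levels summed to 373 scaled TPM, more than NPM1 itself, so the level of NPM1 is uncertain. For NHP2 the summed copies reached 11.4, beside 15.0 for NHP2. The highest value of a member was between 1.33 times (POLR1A) and 2.80 times (FTSJ3) its lowest, and after FTSJ3 the widest range was that of GAR1, at 2.06 times.

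**Figure D2:**
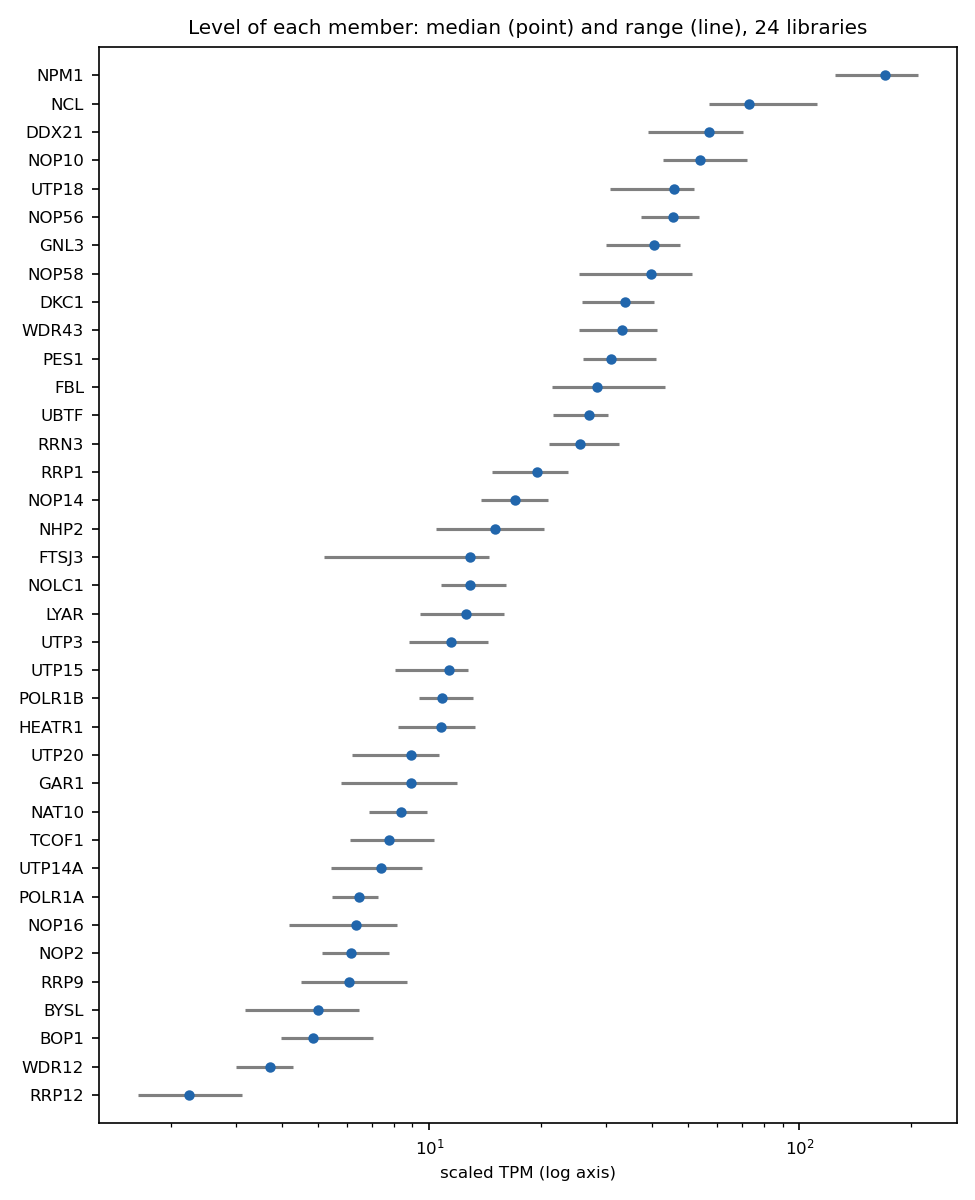
Median (point) and range (line) of each of the 37 members over 24 libraries, in scaled TPM on a log axis. NPM1 is highest at a median of 171, RRP12 is lowest at 2.24, and the long line of FTSJ3 reaches down to 5.18.

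After SRSF1 depletion, the RNA of FTSJ3 fell below the mock level by more than that of any other member in any of the 4 protein comparisons. RRP1 also fell, and RRP12 and UTP14A rose. The other 33 members did not pass the test. SRSF1 is an SR protein that regulates splicing. Of the 37 members, 2 rose and 2 fell, against 741 genes that rose (4.36%) and 852 that fell (5.01%) of the 16994 tested, 9.37% in all. The members' share of calls was thus near the background. Calls needed a limma p under 0.05 after Benjamini-Hochberg adjustment for the mean of both siRNAs, and the same direction for each siRNA.

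FTSJ3 encodes a methyltransferase that is the human counterpart of yeast Spb1 and takes part in processing of the ribosomal RNA precursor. It had 5.18 and 5.87 scaled TPM in SRSF1 siRNA_1 cells, against 12.4 and 14.1 in mock nov cells. With SRSF1 siRNA_3 it had 5.64 and 5.66 scaled TPM, against 13.2 and 13.5 in mock jan cells. The 4 depleted libraries lay below all 4 mock libraries, and below every one of the other 20 libraries of the series, which held between 10.9 and 14.5. The mean was 5.59 ± 0.294 (SD, n = 4) after depletion and 13.3 ± 0.702 (n = 4) in mock cells. In log2 fold change this was -1.12 (SE 0.065), with -1.12 and -1.11 for siRNA_1 and siRNA_3, at a limma adjusted p of 1.05e-07. Depleted cells thus held 46.1% of the mock level as a ratio of scaled TPM + 1, which understates the fall in scaled TPM itself. FTSJ3 overlaps PSMC5, a proteasome subunit gene on the opposite strand, and whether counting used the strand is not stated. PSMC5 had 25.4 ± 5.79 scaled TPM (n = 4) after SRSF1 depletion and 25.4 ± 4.28 (n = 4) in mock cells, a log2 fold change of -0.01 with an adjusted p of 0.984 by limma.

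RRP1, a nucleolar protein of the large subunit pathway, had 16.1 and 16.3 scaled TPM with SRSF1 siRNA_1, against 21.3 and 21.7 in mock nov cells. With siRNA_3 it had 16.3 and 15.5, against 19.6 and 20.4 in mock jan cells. The depleted and mock libraries did not overlap. The log2 fold change was -0.35 (SE 0.057) and the limma adjusted p 0.00127, but with the TPM as deposited, without scaling, the adjusted p was 0.192 at a fold change of -0.34.

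RRP12, a factor of the small subunit precursor and its export, had 2.83 and 3.11 scaled TPM with SRSF1 siRNA_1, against 1.70 and 1.63 in mock nov cells. With siRNA_3 the values were 2.78 and 2.63, against 1.63 and 1.93 in mock jan cells. All 4 depleted libraries were above all 4 mock libraries, at the lowest level of any member. On the log2 scale the difference was 0.49 (SE 0.074) at a limma adjusted p of 0.00067, and 0.69 with a pseudocount of 0.1 in place of 1. An antisense gene, and on the same strand a small RNA gene and a pseudogene, lie inside RRP12 in the annotation, so the assignment of its reads is uncertain.

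UTP14A, a nucleolar protein of the small subunit processome, had 8.73 and 8.53 scaled TPM with SRSF1 siRNA_1, against 7.38 and 6.54 in mock nov cells. With siRNA_3 it had 9.56 and 9.06, against 7.43 and 6.76 in mock jan cells. The groups did not overlap. UTP14A differed by 0.31 in log2 fold change (SE 0.088) at a limma adjusted p of 0.0354. The call was lost when any 1 of the 8 libraries was left out except mock nov replicate 1, with adjusted p-values up to 0.124, and also with the TPM as deposited (0.172) and with no filter on low values (0.0843). UTP14A has a near-identical copy, UTP14C, which had 5.53 ± 0.428 scaled TPM after depletion and 5.06 ± 0.404 in mock cells (n = 4 each), a log2 fold change of 0.11 with a limma adjusted p of 0.311. An antisense gene also overlaps UTP14A.

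The members that were not called ranged from -0.23 (NPM1) to 0.22 (BOP1) in log2 fold change. By role, 0 of 5 ribosomal DNA transcription genes, 0 of 3 box C/D genes, 0 of 4 box H/ACA genes, 0 of 3 scaffold and chaperone genes and 0 of the 2 growth control genes were called. With 9.37% of all genes called, roles this small can have 0 calls at the background share, so the zeros do not set these roles apart. The 2 members that rose are among the 13 small subunit genes, and the 2 that fell are among the 7 large subunit genes. A wider list of pathway genes, described below, had the opposite split. There, 0 of 40 small subunit genes rose and 2 fell, while 2 of 44 large subunit genes rose and 0 fell. Over all genes 4.36% rose and 5.01% fell. With so few calls, neither split shows a difference between the subunit roles. The median of the 37 was -0.03, beside -0.002 over all tested genes, with 17 members above 0 and 20 below. With each SRSF1 siRNA alone FTSJ3 and RRP1 fell and RRP12 rose, 3 members in each comparison (for UTP14A the limma adjusted p was 0.291 and 0.153), against 2.95% of all genes called for siRNA_1 and 3.25% for siRNA_3. For siRNA_3, leaving out any 1 of its 4 libraries left 1 call, and for siRNA_1 it left 1 or 2. A difference between the 2 SRSF1 siRNAs was called for 0 members by limma (0.00588% of genes).

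**Figure D3:**
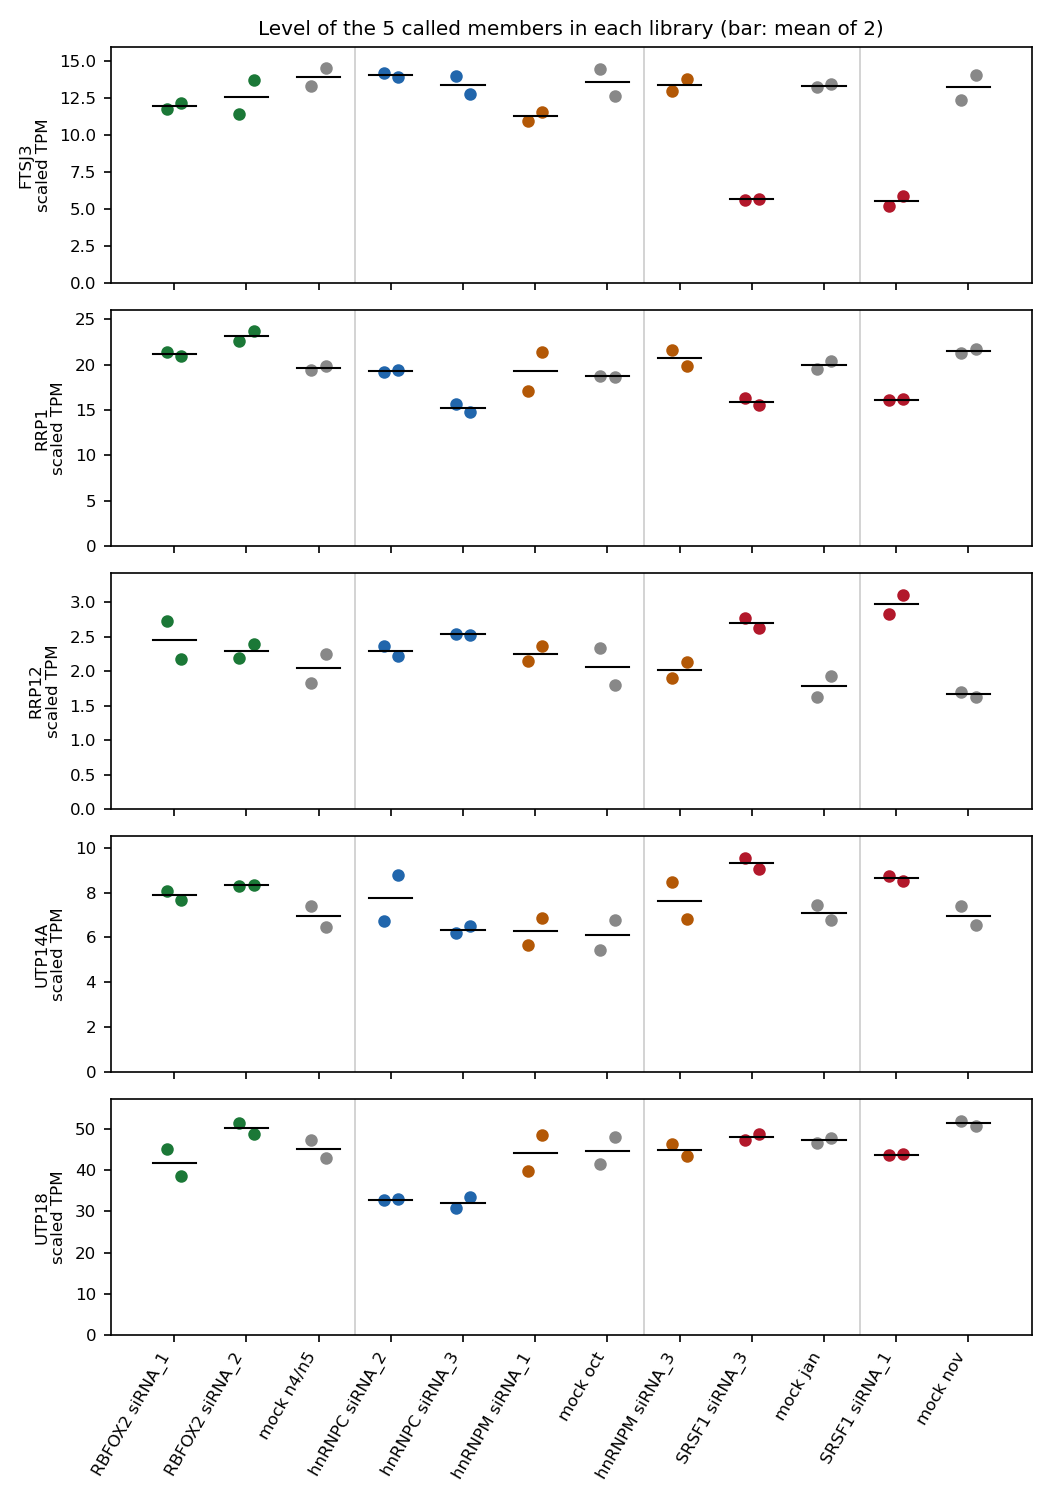
Scaled TPM of the 5 members called in at least 1 comparison, 2 libraries (points) per group with their mean (bar); colours mark the depleted protein, grey marks mock cells, and grey lines separate the mock sets. FTSJ3 lies between 5.18 and 5.87 in the SRSF1 siRNA libraries and between 10.9 and 14.5 in all others, and UTP18 is lowest with both hnRNPC siRNAs.

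After hnRNPC depletion 1 member, UTP18, fell and 0 rose. hnRNPC binds uridine-rich stretches of nuclear RNA. Over all genes, 359 rose (2.11%) and 737 fell (4.34%), 6.45% in all, so here the members had a share of calls no higher than the background. The median of the members was -0.04, against -0.01 over all genes, with 14 above 0 and 23 below.

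UTP18, a WD-repeat protein of the small subunit processome, had 32.8 and 32.9 scaled TPM with hnRNPC siRNA_2 and 30.8 and 33.3 with siRNA_3, against 41.5 and 47.9 in mock oct cells. All 4 depleted libraries were below both mock libraries and below the other 18 libraries, whose lowest was 38.5 in RBFOX2 siRNA_1 cells. The mean was 32.4 ± 1.12 (n = 4) after depletion and 44.7 ± 4.54 (n = 2) in mock cells. The log2 fold change was -0.45 (SE 0.086), with -0.43 and -0.46 for siRNA_2 and siRNA_3, at a limma adjusted p of 0.00654. Without mock oct replicate 3 it was -0.35 with an adjusted p of 0.108, and with only the hnRNPC and oct libraries in the fit the adjusted p was 0.175.

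The next members in size did not pass the test. UTP20, a scaffold of the small subunit processome, had 6.37 and 6.16 scaled TPM with siRNA_2 and 7.24 and 8.91 with siRNA_3, against 7.95 and 9.03 in mock oct cells. Its groups overlapped, and its log2 fold change was -0.23 (SE 0.087) at a limma adjusted p of 0.141. NHP2, a core protein of box H/ACA particles, had 18.0 and 20.4 with siRNA_2 and 16.7 and 16.2 with siRNA_3, against 15.4 and 13.6 in mock oct cells. All 4 depleted libraries were above both mock libraries for NHP2. The log2 fold change of NHP2 was 0.28 (SE 0.105, adjusted p 0.138 by limma). FBL, the methyltransferase of box C/D particles, had 33.6 and 43.2 with siRNA_2 and 31.3 and 32.1 with siRNA_3, against 32.5 and 26.9 in mock cells, a log2 fold change of 0.23 (SE 0.116, limma adjusted p 0.284). The FBL groups overlapped, and with 1 library left out its value ranged from 0.097 to 0.359. FTSJ3 stood at 13.7 ± 0.623 (n = 4) after hnRNPC depletion and 13.6 ± 1.27 (n = 2) in mock cells, a log2 fold change of 0.02.

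The 2 hnRNPC siRNAs did not give the same picture. A difference between them was called by limma for 11.1% of genes and for 4 members, namely TCOF1, UTP3, PES1 and RRP1, each with the higher value for siRNA_2. RRP1, for example, had 19.2 and 19.5 scaled TPM with siRNA_2 and 15.7 and 14.8 with siRNA_3, against 18.8 and 18.7 in mock oct cells. TCOF1 (treacle, which acts in ribosomal DNA transcription) had 8.41 and 10.3 with siRNA_2 and 7.27 and 7.07 with siRNA_3, against 7.57 and 6.16 in mock cells. Taken alone, hnRNPC siRNA_2 had 4 calls among the members, with POLR1A, UTP18 and UTP20 lower and TCOF1 higher, where 13.3% of all genes were called. The call for POLR1A, the largest subunit of RNA polymerase I, rested on 5.62 and 5.46 scaled TPM with siRNA_2, against 7.18 and 6.29 in mock cells, a log2 fold change of -0.24 (limma adjusted p 0.0366). With siRNA_3 the single call was UTP18, where 2.71% of all genes were called. Without hnRNPC siRNA_2 replicate 3 both the 4 calls and the 4 differences between siRNAs became 0, and without mock oct replicate 3 siRNA_2 had 1 call and siRNA_3 had 0. The differences also became 0 without siRNA_3 replicate 3 and 2 without siRNA_3 replicate 1, and the siRNA_3 call was lost without either of its own replicates. The libraries of the oct set also differed by replicate in their trend with GC content, as the rank correlation of a library's log2 difference from mock oct with gene GC content. In replicate 1 it was 0.384 for hnRNPC siRNA_2 and 0.466 for hnRNPC siRNA_3, and in replicate 3 it was -0.002 and -0.170 in that order. For hnRNPM siRNA_1 of the same set it was 0.366 in replicate 1 and 0.212 in replicate 3. The mock oct values, 0.536 and -0.536, mirror each other because each library was set against the mean of both. With the GC correction the number of differing members was 4. A fit with the replicate number as a block called more members for each hnRNPC siRNA and for their difference, as given further below.

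**Figure D4:**
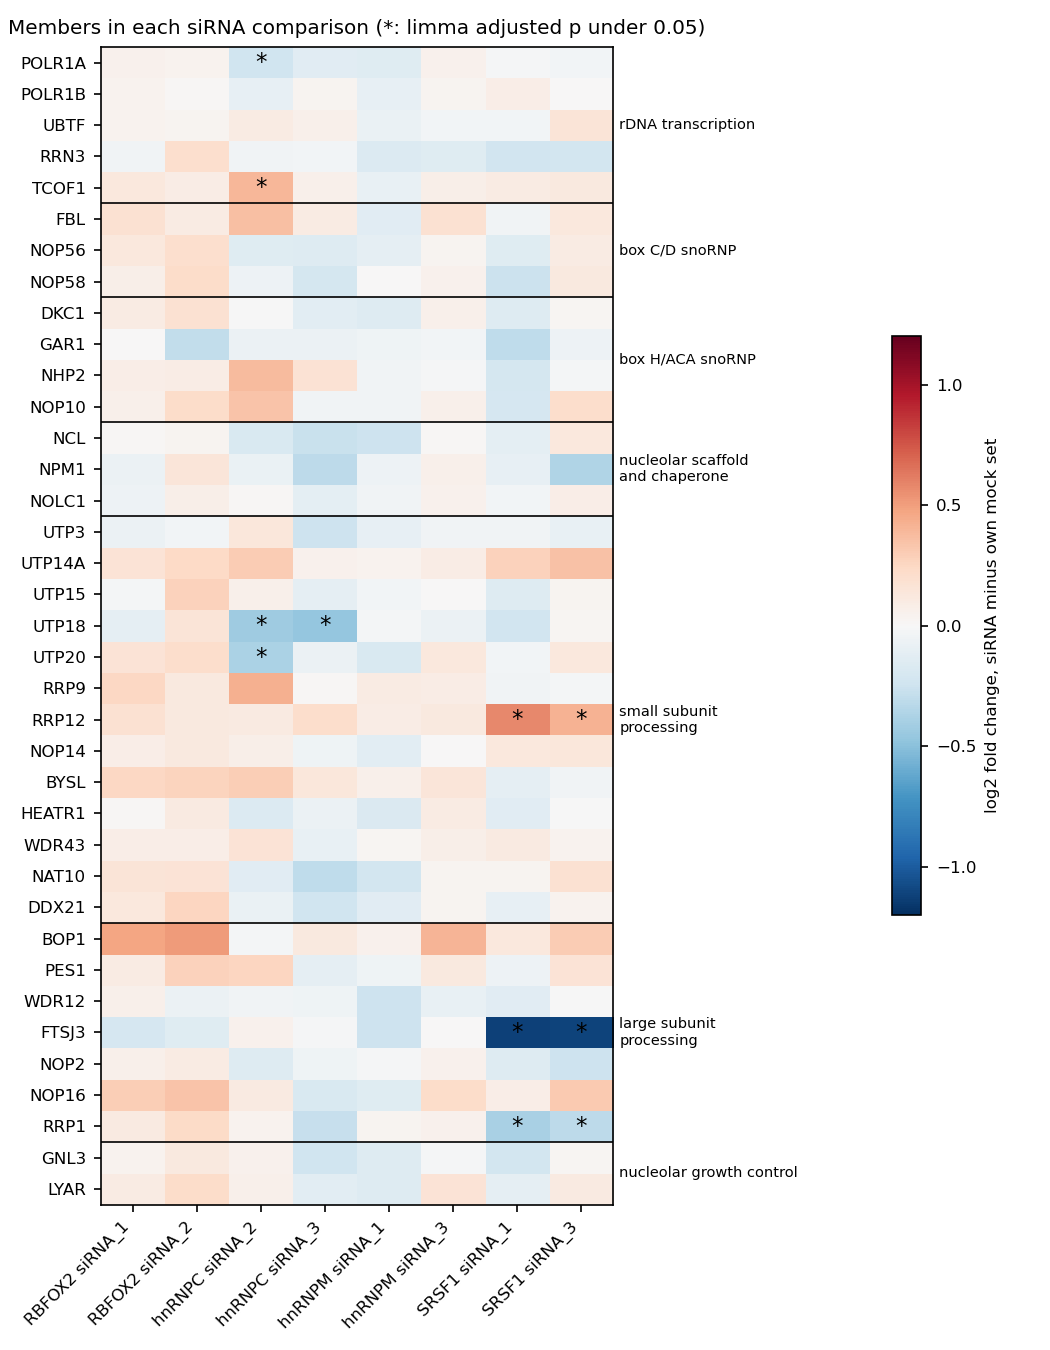
Log2 fold change of each of the 37 members (rows, by role) for each siRNA against its own mock set (columns), red higher and blue lower in siRNA cells; stars mark a limma adjusted p under 0.05 over all 16994 genes. The darkest cells are FTSJ3 with both SRSF1 siRNAs, at -1.12 and -1.11.

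After RBFOX2 depletion 33 of 37 members lay above their mock level, with a median log2 fold change of 0.10, and 0 were called. RBFOX2 binds a UGCAUG element and regulates alternative splicing. Of all genes, 4 rose (0.0235%) and 15 fell (0.0883%), 0.112% in all. At an unadjusted p under 0.05, limma had 9 members, of which FTSJ3 was lower and the other 8 higher, while 2080 of all 16994 genes were below that p. The median of the members was 0.08 for siRNA_1 (30 members above 0) and 0.12 for siRNA_2 (33 above 0), while the median over all genes for both siRNAs was 0.004, with 8656 of 16994 above 0. By role the medians were 0.05 for ribosomal DNA transcription, 0.14 for box C/D, 0.11 for box H/ACA, 0.02 for scaffolds and chaperones, 0.15 for small subunit and 0.16 for large subunit genes. The median changed with the mock libraries used. It was 0.02 without mock n4/n5 replicate 5 and 0.17 without replicate 4, and against all 8 mock libraries it was -0.02. With the TPM as deposited it was 0.34, where all genes had a median of 0.21.

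GC content moved with this comparison. Across 11270 protein-coding genes, the rank correlation of log2 fold change with transcript GC content was 0.431 after RBFOX2 depletion, 0.229 after hnRNPC, 0.399 after hnRNPM and 0.0917 after SRSF1 depletion; genes are not independent replicates, and the same libraries stand behind every point. The members' median GC content was 48.2% (36 of 37 with a value) and that of the protein-coding genes 47.6%. After a correction for GC content the RBFOX2 median of the members was 0.10.

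BOP1, a large subunit processing factor, had the largest difference of the members after RBFOX2 depletion. It had 6.90 and 6.72 scaled TPM with siRNA_1 and 7.00 and 7.05 with siRNA_2, against 4.51 and 4.72 in mock n4/n5 cells. All 4 depleted libraries were above both mock libraries. The log2 fold change was 0.50 (SE 0.120) with a limma adjusted p of 0.103, the smallest of the members. NOP16, a nucleolar protein of large subunit assembly, had 5.74 and 6.02 with siRNA_1 and 6.39 and 5.80 with siRNA_2, against 4.18 and 5.04 in mock cells, a log2 fold change of 0.32 (SE 0.144, limma adjusted p 0.383). GAR1, of the box H/ACA particle, had 8.51 and 7.31 with siRNA_1 and 6.75 and 5.76 with siRNA_2, against 8.05 and 7.73 in mock cells. The GAR1 groups overlapped, at a log2 fold change of -0.15 (SE 0.121, limma adjusted p 0.693). FTSJ3 had 11.7 and 12.2 with siRNA_1 and 11.4 and 13.7 with siRNA_2, against 13.4 and 14.5 in mock cells, a log2 fold change of -0.17 (SE 0.079, limma adjusted p 0.389). With each RBFOX2 siRNA alone 0 members were called, where 0.488% of genes were called for siRNA_1 and 0.841% for siRNA_2, and limma called a difference between the siRNAs for 0 members (1.51% of genes).

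**Figure D5:**
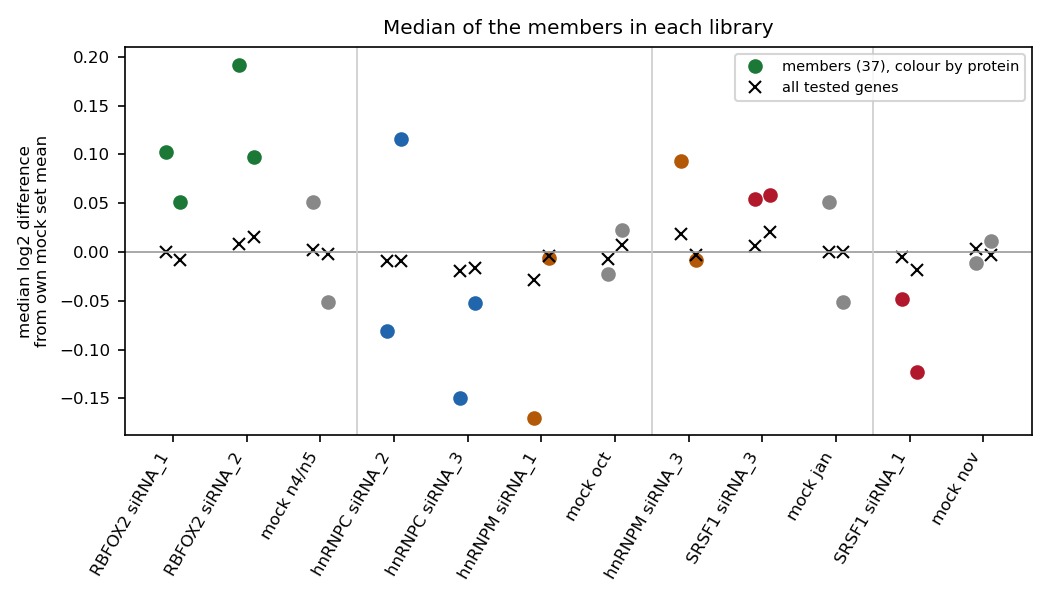
Median log2 difference of the 37 members (coloured points, grey for mock) and of all tested genes (crosses) from the mean of the own mock set, for each library. The 4 RBFOX2 libraries lie between 0.05 and 0.19, and their 2 mock libraries at 0.05 and -0.05; the 2 siRNA_1 libraries of SRSF1 lie below 0, at -0.05 and -0.12, and its 2 siRNA_3 libraries above, at 0.05 and 0.06.

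After hnRNPM depletion 0 members were called, where 61 genes rose (0.359%) and 115 fell (0.677%), 1.04% in all. hnRNPM is a nuclear protein that regulates splicing and binds GU-rich RNA. At an unadjusted p under 0.05, limma had 2 members, WDR12 and BOP1, against 1835 of all 16994 genes, and the smallest adjusted p of a member was 0.286. The median was -0.03, with 16 members above 0 and 21 below. The medians of the 2 siRNAs, which had different mock sets, lay on opposite sides. For siRNA_1 the median was -0.09 with 8 members above 0, and for siRNA_3 it was 0.05 with 29 above 0. By library it was -0.17 and -0.006 for siRNA_1, and 0.09 and -0.008 for siRNA_3, so each side rested mainly on 1 library. With either siRNA 0 members were called, where 0.677% of genes were called for siRNA_1 and 0.282% for siRNA_3, and a difference between them was called by limma for 0 members (0.0412% of genes). For SRSF1 the medians also lay on opposite sides, at -0.10 for siRNA_1 (9 members above 0) and 0.04 for siRNA_3 (24 above 0). By library they were -0.05 and -0.12 for SRSF1 siRNA_1, and 0.05 and 0.06 for SRSF1 siRNA_3. In both proteins siRNA_3 was set against the mock set jan.

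WDR12, a WD-repeat protein of the PeBoW complex, had 3.003 and 3.12 scaled TPM with hnRNPM siRNA_1, against 3.52 and 4.12 in mock oct cells. With siRNA_3 it had 3.91 and 3.41, against 4.21 and 3.68 in mock jan cells, and the log2 fold change was -0.17 (SE 0.059) at a limma adjusted p of 0.286. RRN3, which brings RNA polymerase I to the ribosomal DNA, had 21.0 and 24.99 with siRNA_1, against 23.8 and 28.0 in mock oct cells, and 24.3 and 22.8 with siRNA_3, against 26.3 and 25.97 in mock jan cells. Its log2 fold change was -0.16 (SE 0.096, limma adjusted p 0.620). BOP1 had 4.36 and 4.99 with siRNA_1, against 4.48 and 4.49 in mock oct cells, and 5.54 and 6.57 with siRNA_3, against 4.47 and 4.13 in mock jan cells. For BOP1 the log2 fold change was 0.23 (SE 0.098) and the limma adjusted p 0.408. RRP12 averaged 2.14 ± 0.187 after depletion and 1.92 ± 0.304 in mock cells (n = 4 each), a log2 fold change of 0.11 (SE 0.074, limma adjusted p 0.682) that ranged from 0.042 to 0.170 with 1 library left out. FTSJ3 had 10.9 and 11.6 with siRNA_1, against 14.5 and 12.7 in mock oct cells, and 13.0 and 13.8 with siRNA_3, against 13.2 and 13.5 in mock jan cells, a log2 fold change of -0.12 (SE 0.065, limma adjusted p 0.538).

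Set side by side, the log2 fold change of FTSJ3 was -0.17 after RBFOX2, 0.02 after hnRNPC, -0.12 after hnRNPM and -1.12 after SRSF1 depletion. That of UTP18 was 0.02, -0.45, -0.05 and -0.10, and that of BOP1 was 0.50, 0.05, 0.23 and 0.22, in the same order of proteins. The hnRNPC and hnRNPM comparisons share the mock set oct, and the hnRNPM and SRSF1 comparisons share jan. Differences between the proteins were not tested.

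A wider list of 120 ribosome biogenesis genes, of which 119 were tested, was read in the same way. After SRSF1 depletion 3 rose and 5 fell, beside 4.36% and 5.01% of all genes, a share no higher than the background. XRN2, a nuclear exoribonuclease that trims precursor RNA, rose by 0.21 in log2 fold change (60.0 ± 2.83 scaled TPM after depletion, 51.8 ± 3.39 in mock cells, n = 4 each). SENP3, a nucleolar SUMO protease, rose by 0.20, and MDN1, an ATPase that remodels the large subunit precursor, by 0.20. EXOSC9, a subunit of the RNA exosome, fell by 0.39 (15.7 ± 2.62 after depletion, 20.7 ± 1.69 in mock cells, n = 4 each). DDX52, a helicase of the small subunit pathway, fell by 0.38 and LTV1, which acts in maturation of the small subunit, by 0.29. All of these except DDX52 overlap other genes in the annotation, SENP3 and LTV1 on the same strand. The median of the list was -0.03.

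After hnRNPC depletion 5 genes of the wider list rose and 5 fell, beside 2.11% and 4.34% of all genes (6.45% in all). BMS1, a GTPase of the small subunit processome, fell by 0.52 (8.25 ± 1.33 scaled TPM after depletion, n = 4, and 12.2 ± 0.018 in mock cells, n = 2). NOB1, the endonuclease that makes the end of 18S ribosomal RNA, fell by 0.44, and NOL9, a kinase that acts on the internal spacer, by 0.39. WDR74, a large subunit assembly factor, rose by 0.42, and it holds a U2 small nuclear RNA gene on the same strand, so its value is uncertain in these structured-RNA libraries. NOC2L rose by 0.33 and DCAF13 by 0.30, and both overlap other genes, as do BMS1, NOB1 and NOL9. The list had a median of -0.03 after hnRNPC depletion. After RBFOX2 depletion 0 genes of the list were called by limma, with 21 at an unadjusted p under 0.05 (2080 of all 16994 genes), a median of 0.07 and 89 of 119 above 0. After hnRNPM depletion 0 were called by limma, with 7 at an unadjusted p under 0.05 (1835 of all genes) and a smallest adjusted p of 0.0508.

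MYC, a transcription factor known to act on this pathway, was not called in any of the 4 comparisons. It had 18.5 ± 1.41 scaled TPM (n = 4) after RBFOX2 depletion and 15.2 ± 0.178 (n = 2) in mock cells, a log2 fold change of 0.26 with a limma adjusted p of 0.245. After hnRNPC depletion it had 19.03 ± 2.35 (n = 4) and in mock cells 15.3 ± 1.79 (n = 2), a log2 fold change of 0.29 with a limma adjusted p of 0.0658. The log2 fold changes after hnRNPM and SRSF1 depletion were -0.11 and 0.02. MAX, the partner of MYC, rose by 0.23 after SRSF1 depletion (limma adjusted p 0.0118), and MXD1, which also pairs with MAX, fell by 0.40 (limma adjusted p 0.00569). They belong to a list of 6 MYC network genes, of which 4 were tested, where 9.37% of all genes were called. In the other 3 comparisons 0 of the 4 were called. After hnRNPC depletion 3 of the 4 had an unadjusted limma p under 0.05, against 3551 of all 16994 genes.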

How the data were processed

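RNA levels in 24 libraries of SKOV3.ip1 cells were taken from the table of TPM that the authors deposited, with 57773 genes and a sum of 1e+06 per library. Per the submitters' processing notes, TopHat2 2.0.9 and Bowtie2 2.1.0.0 were used with the hg19 assembly, besides SAMtools 0.1.19.0, Trimmomatic 0.38 and FastQC 0.10.1; the tool behind the TPM, the annotation and the use of strand are not given in the sources used here. Overlapping genes and copies therefore have an uncertain assignment.

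Values were divided by median-ratio factors (0.656 to 1.40) over the 22727 genes above 0 in every library and analysed as log2(scaled TPM + 1). The pseudocount understates the changes of genes with low values. Genes reaching 1 TPM in 2 or more libraries (16994) were fitted in limma 3.58.1 (R 4.3.3) with 12 groups and a mean-variance trend, giving 12 residual and 3.04 prior degrees of freedom. The mean of both siRNAs of a protein, each siRNA alone and the difference between siRNAs were tested, with Benjamini-Hochberg adjustment over all genes. Identical values were found in 0 of 276 library pairs.

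The members, lists and tests were chosen with earlier results of these data known. Named in full were FTSJ3, the called members, and the 2 highest and 2 lowest members by log2 fold change for each protein; by level, the 3 highest and 3 lowest; of the wider list, up to 3 called genes per direction; and MYC. POLR1A, TCOF1, UTP3, PES1 and RRP1 in the hnRNPC comparison, and MAX and MXD1, were named after their values were seen. GC content came from GENCODE by gene identifier. Gene overlaps were read from GENCODE gene positions, on an assembly that differs from hg19, so those positions are not printed. BOP1, whose identifier has no entry there, was not checked for overlaps.

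The alternatives were the TPM as deposited, quantile normalisation, pseudocount 0.1, filters at 5 TPM and at none, a replicate block, no trend, fits on the libraries of 1 protein, all 8 mock libraries as control, a GC correction (also together with the block), and each library left out in turn. On simulated data of the same design, with 200 of 16994 genes changed, the fit recovered log2 changes of 0.5 in 51% of cases (RBFOX2), 54% (hnRNPC), 71% (hnRNPM) and 57% (SRSF1), and changes of 1 in 94%, 89%, 93% and 91% in that order. Recovery depends on how many genes change, and the data had 19, 1096, 176 and 1593 calls in that order. The rates may therefore differ from those in the data.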

Additional observations from a re-analysis of the deposited data

Results flagged for a closer look

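The 2 hnRNPC siRNAs gave different results for 4 of 37 members, by a limma test of the difference itself, a share near that of all genes (1880 of 16994, 11.1%). The difference in log2 fold change, siRNA_2 minus siRNA_3, was 0.34 for TCOF1 (SE 0.101, adjusted p 0.0441), with 0.40 for siRNA_2 and 0.06 for siRNA_3. For UTP3, a protein of the small subunit processome, it was 0.39 (SE 0.101, limma adjusted p 0.0224), with 0.14 for siRNA_2 and -0.25 for siRNA_3. PES1 of the PeBoW complex differed by 0.37 (SE 0.094, limma adjusted p 0.0204), with 0.26 and -0.11 in that order, and RRP1 by 0.32 (SE 0.081, limma adjusted p 0.0175), with 0.04 and -0.28. In scaled TPM, UTP3 had 11.6 and 12.7 with siRNA_2 and 8.78 and 9.26 with siRNA_3, against 11.2 and 10.6 in mock oct cells, and PES1 had 31.5 and 39.3 with siRNA_2 and 27.4 and 26.8 with siRNA_3, against 28.1 and 30.4 in mock oct cells. The median of the siRNA_2 libraries over the 37 members, relative to mock oct, was -0.08 in replicate 1 and 0.12 in replicate 3. Leaving out replicate 3 of either siRNA brought the differing members to 0. There were 2 when siRNA_3 lacked replicate 1, 6 when siRNA_2 lacked replicate 1, and 5 when either mock oct library was dropped.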

How the results depend on the processing

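The fall of FTSJ3 after SRSF1 depletion kept its direction and its call under every alternative run, between -1.07 and -1.16 with 1 library left out, and 0 values of the named members changed sign together with their call. The counts depended on the processing. For genes called with the 4 proteins (RBFOX2, hnRNPC, hnRNPM and SRSF1 in this order throughout), the 19, 1096, 176 and 1593 as reported became 4, 287, 42 and 249 with the TPM as deposited. There the rises and falls were 3 and 1 (4 and 15 as reported), 64 and 223 (359 and 737), 12 and 30 (61 and 115) and 88 and 161 (741 and 852), and the median of all genes was 0.21, -0.14, -0.06 and 0.001. The members then had 2 calls after SRSF1 depletion, 0 with hnRNPC siRNA_2, 0 with SRSF1 siRNA_1, 1 with SRSF1 siRNA_3 and 2 differences between hnRNPC siRNAs, and their median was 0.34 for RBFOX2 and -0.19 for hnRNPC. With no filter RBFOX2 had 52 genes and SRSF1 siRNA_3 had 1 member; at 5 TPM RBFOX2 had 46 genes, hnRNPC siRNA_3 had 2 members, and RRP12 was not tested. The GC correction gave 37 genes for RBFOX2 and 2 members for hnRNPC and for hnRNPC siRNA_3. With all 8 mock libraries as control, genes called were 5003, 4411, 392 and 2630; members called were 10 for RBFOX2 (median -0.025), 16 for hnRNPC, 3 and 6 for the RBFOX2 siRNAs, 11 and 9 for the hnRNPC siRNAs, 1 for hnRNPM siRNA_1, 5 for SRSF1 siRNA_3, and 2 differed between hnRNPM siRNAs. With only the libraries of 1 protein in the fit, RBFOX2 had 1 gene, hnRNPC 58 and hnRNPM 37; among the members the hnRNPC calls, siRNA calls and differences were 0, and each SRSF1 siRNA had 1. Leaving out mock nov replicate 1 and hnRNPC siRNA_2 replicate 3 together, a choice made after seeing the data, gave 31 genes for RBFOX2, 707 for hnRNPC, 0 members for hnRNPC siRNA_2, 2 for hnRNPC siRNA_3, 1 for each SRSF1 siRNA and 0 differences for hnRNPC. Quantile normalisation, a pseudocount of 0.1 and no trend kept every count within 1.5 times. The cause of these changes was not tested.

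With the replicate number as a block within each mock set, genes called were 358, 2273, 355 and 2805. Members called were 1 for RBFOX2 (BOP1, adjusted p 0.0401 by limma), 2 for hnRNPC, 1 for RBFOX2 siRNA_2, 9 and 3 for the hnRNPC siRNAs and 5 for SRSF1 siRNA_3, and 11 differed between hnRNPC siRNAs. With block and GC correction, genes called were 488, 2782, 530 and 3530, and members called 1 for RBFOX2, 6 for hnRNPC, 7 for SRSF1, 6 for RBFOX2 siRNA_2, 9 and 7 for the hnRNPC siRNAs, 1 for hnRNPM siRNA_1, and 7 and 5 for the SRSF1 siRNAs, with 3 differing between RBFOX2 and 12 between hnRNPC siRNAs. Deviations of same-numbered libraries correlated at 0.06 to 0.43 between groups of a mock set, and at 0.18 to 0.35 for all 6 pairs of groups in the oct set, which is a hint from the data that numbers were shared. Each set has only 2 numbers and the labels do not say what a number shares, so the fit without the block is the one reported.

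With 1 library left out, where the lone library of its group is assumed to vary like the other groups, genes called ranged over 1 to 17, 368 to 1199, 79 to 138 and 919 to 1239. Members called ranged over 0 to 1 for hnRNPC, 0 to 7 for hnRNPC siRNA_2, 0 to 1 for hnRNPC siRNA_3, 3 to 4 for SRSF1, 1 to 2 for SRSF1 siRNA_1 and 1 for SRSF1 siRNA_3, and 0 to 6 differed between hnRNPC siRNAs; the other counts of members stayed at 0. The median of the members ranged over 0.018 to 0.17, -0.08 to 0.01, -0.06 to 0.02 and -0.06 to 0.006. Depth cannot be read from TPM, and changes of log2 0.5 were recovered in 51% to 71% of simulated cases, so smaller differences of single members may be missed.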

Other observations

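Several members are host genes of snoRNAs, the guides of ribosomal RNA modification, and 22 such snoRNA genes on the strand of their host (NOP56, NOP58, DKC1, NCL, GNL3 and WDR43) passed the filter. By limma 0 of the 22 were called in each of the 4 comparisons, with 5 at an unadjusted p under 0.05 after RBFOX2 depletion and 0 after each of the others. Of the other 322 snoRNA genes tested, 0, 3, 0 and 0 were called after RBFOX2, hnRNPC, hnRNPM and SRSF1 depletion. At an unadjusted limma p under 0.05 there were 54, 13, 12 and 4 of the 322 in that order. Of all 16994 genes, 0.112%, 6.45%, 1.04% and 9.37% were called. The median log2 fold change of the 22 snoRNAs inside members was -0.59 after RBFOX2 depletion, with 21 of 22 below 0, and 0.45 after hnRNPC depletion, with 19 above 0. It was 0.14 after hnRNPM and -0.07 after SRSF1 depletion. The other 322 snoRNA genes tested had medians of -0.44, 0.24, 0.13 and -0.07 in the same order of proteins, of the same sign as the snoRNAs inside the members in each comparison. SNORA75 inside NCL, for example, had a mean of 410 scaled TPM after RBFOX2 depletion and 732 in mock cells, while its host NCL had a log2 fold change of 0.02. SNORA51 inside NOP56 had 3069 after hnRNPC depletion and 2128 in mock cells, with a log2 fold change of -0.15 for NOP56. Reads of a snoRNA and of its host intron cannot be told apart by these values.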
